A study of Homo sapiens with 4 samples.

Results

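The genes described here encode the proteins of the small nuclear ribonucleoproteins (snRNPs) and the related LSM proteins. They were taken as the 35 gene symbols of a fixed list, out of 26255 symbols with values. RNA was sequenced from 2 established human pancreatic cancer lines, MIA PaCa-2 and PSN-1, each transfected with a miR-4800-3p mimic (an oligonucleotide that stands in for the mature microRNA) or with a negative control of scrambled sequence. Each line gave 1 mimic library and 1 scramble library, 4 groups in all, so no group has a replicate and the second line is the only repeat of the treatment. The sources used here state neither the dose nor the time after transfection. The study set out to find messenger RNAs targeted by miR-4800-3p, and the question here was whether the low SNRPE and LSM6 values of the mimic libraries extend to the other Sm, LSM and snRNP proteins.

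Each spliceosomal snRNP is a small nuclear RNA wrapped at its Sm site by a ring of Sm proteins, to which proteins particular to U1, U2, U4, U5 or U6 are added. The U6 RNA carries a ring of LSM2 to LSM8 instead, and a cytoplasmic ring in which LSM1 replaces LSM8 binds the 3' ends of messenger RNAs and promotes their decapping. The U7 snRNP, which processes histone messenger RNA, has LSM10 and LSM11 in place of SNRPD1 and SNRPD2. A ring is complete only with every subunit, which is why the levels of its genes are given side by side.

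The sequences below are shown because miR-4800-3p pairs with messenger RNA through its seed (bases 2 to 8), and because 3 members carry the full complement of that seed in a messenger RNA. The mature microRNA is given first, from RefSeq (GRCh38.p14), with the seed in capitals. The 3 lines after it give member transcripts of GENCODE v29 (GRCh38), with the complement of the seed in capitals.
hsa-miR-4800-3p: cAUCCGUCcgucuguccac
LSM6: acagaagaGACGGATgtgaagac
LSM4: cagtctcgGACGGATctgctcag
SNRNP200: gcccttgaGACGGATgagaatct
The LSM6 match lies in the coding sequence (chr4:146189646-146189652, plus strand) and begins at base 233 of the 243 coding bases, just before the stop codon. The LSM4 match lies in the 3' UTR (chr19:18307392-18307398, minus strand), and the SNRNP200 match lies in the coding sequence (chr2:96296960-96296966, minus strand). All protein-coding transcripts of the 35 members in the GENCODE basic set were searched on the transcript strand for GACGGAT and ACGGATA, which overlap in the bases ACGGAT. SNRPE (chr1:203861603-203870550, plus strand) had neither, nor the shorter ACGGAT. In 1 transcript per gene, 1 of 35 members had such a match in the 3' UTR (2.86%), against 197 of 9737 measured genes (2.02%). In the coding sequence it was 2 of 35 (5.71%) against 437 of 9809 (4.46%), with no allowance for length. A match describes the sequence, and its use in these cells was not measured.

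The deposited values were FPKM (fragments per kb of transcript, scaled for library size in a way the sources used here do not give). Levels were compared between genes as listed, though the annotation is not given and some genes may share reads with pseudogene copies. From 15699 to 17294 symbols were above 0 in a library. The spacing of low values put 1 FPKM at about 12.7 to 16.1 fragments per kb. A change is the log2 ratio of mimic to scramble after adding 1 FPKM to each, which shrinks the changes of low genes, and a gene counted as measured in a line at a mean of at least 1 FPKM there. The fragment counts and counting standard errors below were estimated from the coding length alone. FPKM covers the whole transcript, so the counts may understate the fragments behind a value, and the errors may overstate the counting error. The errors also leave out any difference between cultures. Both lines are labelled epithelial: the keratin genes KRT8 and KRT18 were at 495 to 923 FPKM in the 4 libraries, the mesenchymal gene VIM was at 1144 to 4401 FPKM, and KRT19 was at 78.2 to 178 FPKM. The epithelial adhesion genes did not follow the keratins throughout. CDH1 was at 0.335 and 0.170 FPKM in MIA PaCa-2 (mimic and scramble) and at 0.720 and 1.51 FPKM in PSN-1, and EPCAM was at most 0.139 FPKM in the MIA PaCa-2 libraries and at 24.1 and 28.4 FPKM in those of PSN-1. Of the 3 leukocyte markers, PTPRC was at most 0.433 FPKM and CD3E was listed at 0 in every library, while CD68 was at 20.1 to 38.7 FPKM. The 4 fibroblast and stellate cell markers summed to 7.08 and 7.87 FPKM in MIA PaCa-2 cells and to 80.1 and 98.7 FPKM in PSN-1 (mimic and scramble). The 3 endothelial markers were at most 1.58 FPKM in any library. Of the 3 acinar markers, PRSS1 was listed at 0 in MIA PaCa-2 and at 17.4 and 20.6 FPKM in PSN-1. The other acinar markers did not follow it: CPA1 was at 0 in MIA PaCa-2 and at 0.288 and 0.847 FPKM in PSN-1. CELA3A was listed at 0 in every library.

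SNRPE, a core protein of the Sm ring, was lower with the mimic in both lines, and the other Sm genes were not lower to a like degree in either. SNRPE was at 5.48 FPKM with the mimic and 17.9 FPKM with the scramble in MIA PaCa-2, and at 5.81 and 20.0 FPKM in PSN-1. Both mimic libraries lay below both scramble libraries, at 30.6% and 29.1% of their own control. SNRPE and LSM6 led to the question through their low values with the mimic. Their separation, ranks and shares of a ring therefore describe that choice and add no separate result. How many of all genes separate by library in this way was not counted, here or for the genes below. The log2 changes were -1.55 (counting SE 0.36) and -1.62 (counting SE 0.33), from an estimated 21.9 against 64.1 fragments in MIA PaCa-2 and 26.1 against 71.1 in PSN-1 over the coding length. In bulk libraries such as these, fewer cells with the transcript and less of it per cell cannot be told apart.

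The partners of SNRPE in the ring showed smaller differences. SNRPF and SNRPG, which join SNRPE in a trimer before the ring closes, had log2 changes of -0.00058 and -0.0080 in MIA PaCa-2. In PSN-1 they were higher with the mimic, SNRPF at 99.3 against 86.6 FPKM (0.20) and SNRPG at 70.6 against 60.8 FPKM (0.21). SNRPD1 and SNRPD2, which bind each other before they join the ring, had log2 changes of -0.27 and -0.065 in MIA PaCa-2 cells, and of -0.31 and -0.052 in PSN-1. The other such pair, SNRPD3 and SNRPB, had -0.17 and -0.23, then 0.0068 and -0.14. All 7 measured Sm genes, SNRPE included, were below their control in MIA PaCa-2 (median -0.17), against 47.8% of all genes. In PSN-1 4 of 7 were (57.1%, median -0.052), against 52.4% of all genes. SNRPF and SNRPG were nearly level in MIA PaCa-2, and SNRPE alone of the 7 passed 1.5-fold.

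The order of the levels within the ring changed at its lower end. With the scramble, SNRPE ranked number 6 of the 7 measured Sm genes in MIA PaCa-2, above SNRPD3 at 14.2 FPKM, and number 5 in PSN-1, next to SNRPD1 at 19.7 FPKM. With the mimic it was the lowest in both lines, below SNRPD3 at 12.4 and 10.9 FPKM. SNRPE made up 2.40% and 2.34% of the summed FPKM of the Sm genes with the scramble and 0.813% and 0.716% with the mimic, in MIA PaCa-2 and PSN-1. SNRPB and SNRPD2 were the highest in every library, between 210.5 and 438 FPKM. SNRPN, a near copy of SNRPB, was listed at 0 in all 4 libraries. SNURF, which shares a transcript with SNRPN, was listed at 52.1 to 61.5 FPKM, so reads of SNURF and SNRPN cannot be told apart here. Sharing of reads between SNRPN and SNRPB was not tested. GENCODE names 9 pseudogene copies of SNRPE, none of which the files list, and reads could be shared with them. SNRPG has 20 such copies and SNRPC 18. The part of such copies in the values was not tested.

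**Figure D1:**
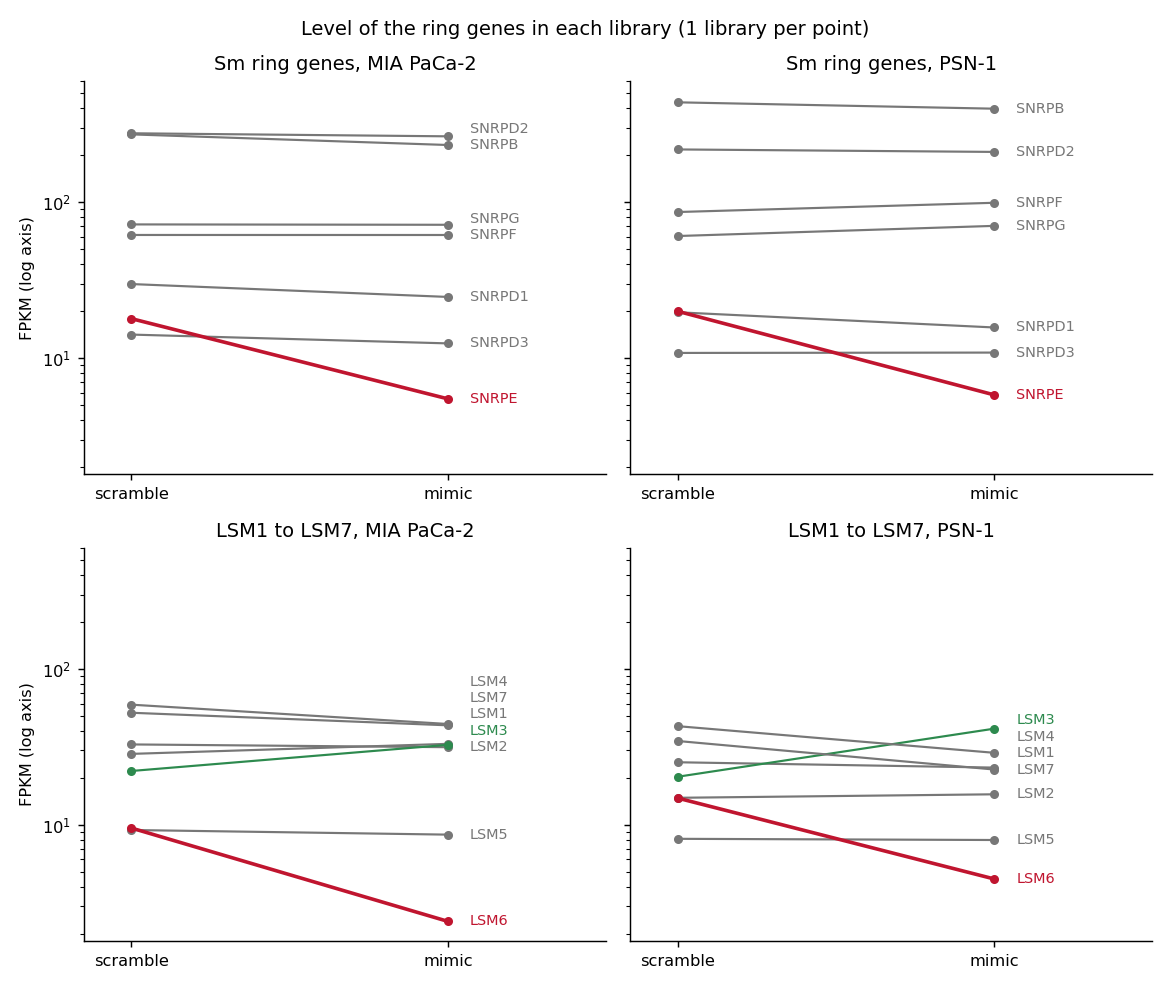
FPKM on a log axis with the scramble and with the mimic, 1 library per point, for the 7 measured Sm ring genes (top) and LSM1 to LSM7 (bottom) in MIA PaCa-2 (left) and PSN-1 (right). The red lines, SNRPE and LSM6, drop to the lowest level of the genes plotted beside them in both lines. LSM8 of the nuclear ring is not plotted and was lower than LSM6 with the mimic, at 1.61 and 1.64 FPKM. LSM3 (green) is higher with the mimic, at 32.6 against 22.2 FPKM and 41.4 against 20.3 FPKM.

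LSM6, a subunit of both LSM rings, was likewise the lowest gene of its list in both mimic libraries. It was at 2.40 FPKM with the mimic and 9.54 FPKM with the scramble in MIA PaCa-2, and at 4.50 and 14.9 FPKM in PSN-1. Both mimic libraries lay below both scramble libraries, at 25.2% and 30.3% of their own control. The log2 changes were -1.63 (counting SE 0.56) and -1.53 (counting SE 0.40). The MIA PaCa-2 mimic value corresponds to an estimated 8.37 fragments over the short coding sequence, which is 243 of the 2259 bases of the transcript.

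The other LSM ring genes went in different directions. LSM3 stood at 32.6 against 22.2 FPKM in MIA PaCa-2 cells (log2 change 0.54, counting SE 0.20) and at 41.4 against 20.3 FPKM in PSN-1 (0.99, counting SE 0.19), so both mimic libraries lay above both scramble libraries. LSM4, the member with a seed match in its 3' UTR, was at 44.4 against 59.0 FPKM (-0.40) and at 28.99 against 43.0 FPKM (-0.55). The MIA PaCa-2 mimic library lay above the PSN-1 scramble library for LSM4, so its groups overlap across lines.

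LSM7 was at 43.5 against 52.4 FPKM in the MIA PaCa-2 line (-0.26) and at 22.6 against 34.5 FPKM in PSN-1 (-0.59). LSM5, at 8.65 against 9.27 FPKM and 7.99 against 8.14 FPKM, and LSM2, with log2 changes of -0.057 and 0.070, lay within 1 counting SE of their controls. LSM1, the subunit that marks the cytoplasmic ring, had changes of 0.21 and -0.11. LSM8, its nuclear counterpart and not on the list of members, was at 1.48 to 1.64 FPKM in the 4 libraries. Its changes were 0.032 and 0.094 (counting SE 0.82 and 0.81). An estimated 5.47 to 7.68 fragments per library fell over its coding length, which is 291 of the 1305 bases of the transcript. Of the 7 listed ring genes, LSM6 included, 5 were lower in each line (71.4%, against 47.8% and 52.4% of all genes). Their medians were -0.089 and -0.11.

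The proteins of single snRNPs had smaller differences. The 3 U1 proteins were lower in both lines, as were 27.6% of all genes. SNRNP70, which binds stem-loop 1 of U1 RNA, had log2 changes of -0.28 and -0.20. SNRPC had -0.20 and -0.33, and SNRPA -0.48 in MIA PaCa-2 (29.5 against 41.4 FPKM) and -0.015 in PSN-1. Of the 2 U2 proteins SNRPA1 was lower (-0.24 and -0.21) and SNRPB2 slightly higher (0.043 and 0.056). None of these 5 genes passed 1.5-fold in either line.

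In the U5 and tri-snRNP group, PRPF4 and PRPF3, partners in the U4/U6 particle, were higher with the mimic in both lines. PRPF4 was at 36.2 against 25.5 FPKM in the MIA PaCa-2 line and 42.1 against 28.6 FPKM in PSN-1, so both mimic libraries lay above both scramble libraries (log2 changes 0.48, counting SE 0.081, and 0.54, counting SE 0.075). PRPF3 was at 30.7 against 24.7 FPKM and 51.3 against 41.0 FPKM (0.30 and 0.32), with its groups overlapping across lines. PRPF31, which binds the same particle, had -0.26 and 0.021.

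The large U5 proteins were nearly level: PRPF8, the scaffold of the catalytic core, had -0.080 and 0.14, and the helicase gene SNRNP200, which has a seed match in its coding sequence, was at 54.2 against 56.7 FPKM and 51.1 against 49.7 FPKM (-0.063 and 0.040). SNRNP40 had 0.070 and -0.098 and SNRNP27 0.23 and 0.022. Of the 7 genes of the group 4 were higher in the MIA PaCa-2 line and 6 in that of PSN-1. The share lower was 42.9% and 14.3%, against 47.8% and 52.4% of all genes.

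SNRNP35, a U11/U12 protein of the minor spliceosome, passed 2-fold in PSN-1 and not in MIA PaCa-2. It was at 1.06 FPKM with the mimic and 3.29 FPKM with the scramble there (log2 change -1.06, counting SE 0.48), and at 2.43 against 1.499 FPKM in the MIA PaCa-2 line (0.46, counting SE 0.48). The lines went in opposite directions, with an estimated 12.6 to 31.1 fragments per library over the coding length (741 of the 1975 bases of the transcript). The difference between the lines has no test, as 1 library per group leaves no residual for it. SNRNP25 had changes of -0.27 and -0.041 and SNRNP48 of -0.14 and 0.23.

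Of the U7 proteins, LSM11 was at 2.52 against 1.27 FPKM in the MIA PaCa-2 line (0.63, counting SE 0.41), the only member past 1.5-fold upward there, and at 2.40 against 2.39 FPKM in PSN-1. LSM10 was at 40.2 against 32.2 FPKM in the MIA PaCa-2 line (0.31) and at 16.2 against 23.1 FPKM in PSN-1 (-0.48). The remaining LSM-domain genes, LSM12, LSM14A and LSM14B, the latter pair encoding RNA granule proteins, ranged from -0.17 to 0.30.

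**Figure D2:**
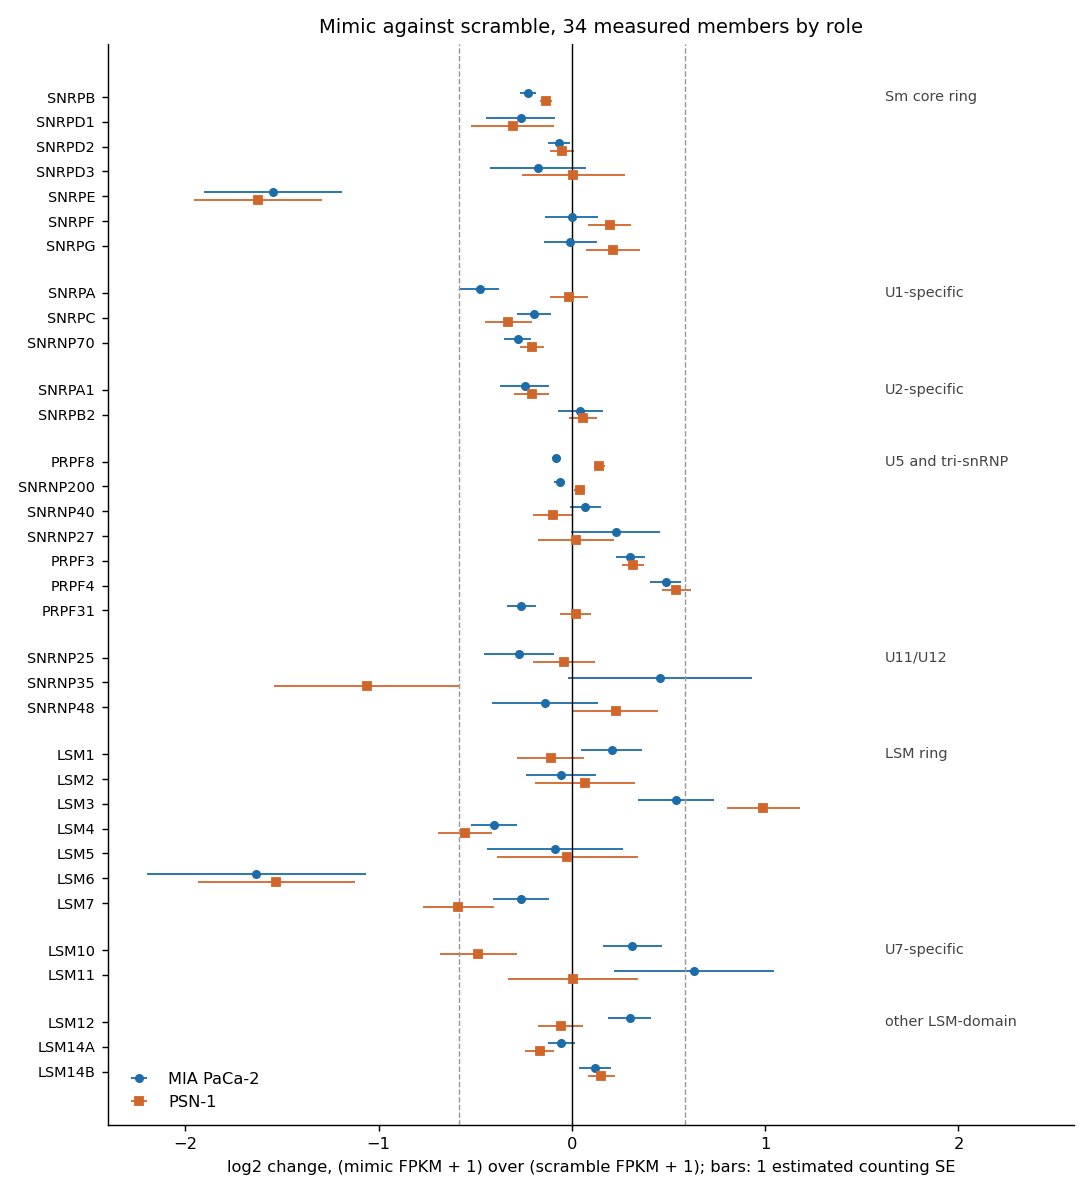
Log2 change of mimic over scramble for the 34 measured members, grouped by role, in MIA PaCa-2 (circles) and PSN-1 (squares). Bars are 1 estimated counting SE and dashed lines mark 1.5-fold; SNRPE and LSM6 lie past the lower line in both lines of cells, while most other members lie between the dashed lines.

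The counts over all members include SNRPE and LSM6, whose low values led to the question, so each is followed by the count without them and nothing is read from the first. In MIA PaCa-2 22 of 34 measured members were lower (64.7%; 47.8% of 11484 genes), and their median change was -0.064 against 0.014 over all genes; without SNRPE and LSM6 it was 20 of 32 (62.5%), with a median of -0.060. In PSN-1 19 of 34 were lower (55.9%; 52.4% of 12233 genes), with a median of -0.032 against -0.016; without SNRPE and LSM6 it was 17 of 32 (53.1%), with a median of -0.019. These shares were set beside those of all genes with no test. Past 1.5-fold, 2 members were lower in MIA PaCa-2 (4.06% of all genes) and 1 was higher (5.43%). In PSN-1 4 were lower past 1.5-fold, SNRPE, LSM6, SNRNP35 and LSM7 (3.87% of all genes), and LSM3 was higher (3.17%); LSM7 lay just past the limit of 0.58 on the log2 scale, and inside it at -0.49 with the trend on transcript length removed and at -0.51 with that on 3' UTR GC content removed. Past 2-fold, SNRPE and LSM6 were lower in MIA PaCa-2 (0.81% of all genes) and SNRPE, LSM6 and SNRNP35 in PSN-1 (0.777%), and 0 members were higher in either line (1.31% and 0.85% of all genes). Without SNRPE and LSM6, 0 of 32 members were lower past 1.5-fold or 2-fold in MIA PaCa-2; 2 were lower past 1.5-fold and 1 past 2-fold in PSN-1.

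Across both lines 14 of 34 members were lower (41.2%; 27.6% of 10678 genes), 7 were higher (28.1% of genes) and 13 went in opposite directions (44.2% of genes). Past 1.5-fold in both lines, 2 of 34 were lower (0.609% of genes) and none was higher (0.749% of genes). Those 2 are SNRPE and LSM6, for which the list was drawn up, so this count says nothing of its own. Of the other 32 members, 12 were lower in both lines at any size and 0 past 1.5-fold. Their changes ran from -0.48 (SNRPA) to 0.63 (LSM11) in MIA PaCa-2 and from -1.06 (SNRNP35) to 0.99 (LSM3) in PSN-1, and their median estimated counting SE was 0.12 in each line.

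**Figure D3:**
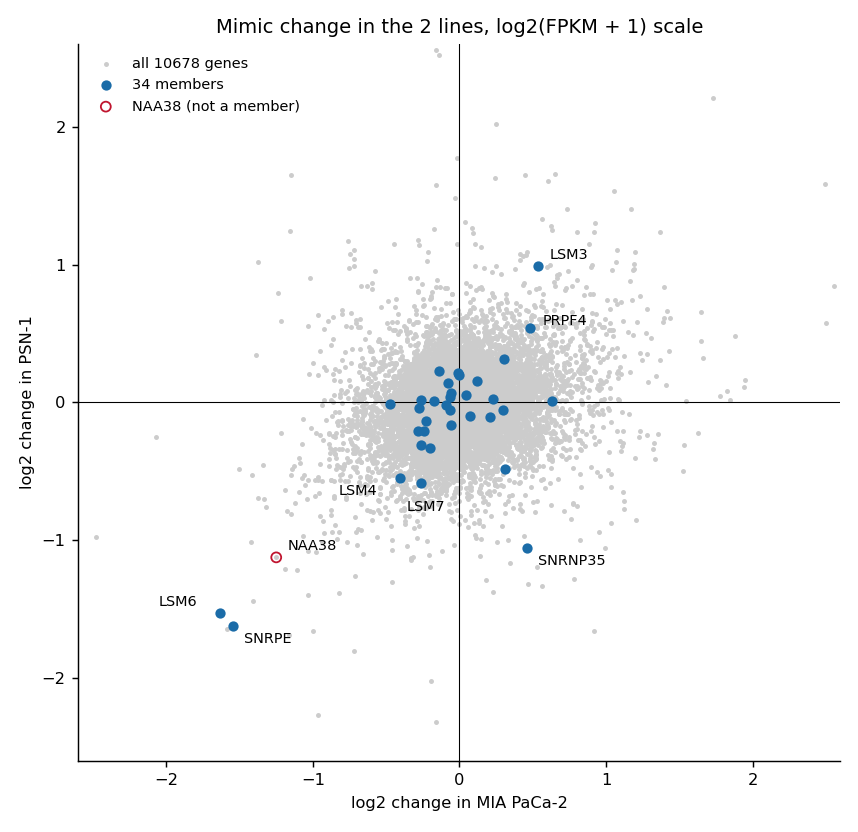
Log2 change in PSN-1 against that in MIA PaCa-2 for 10678 genes measured in both lines (gray) and 34 members (blue), with 27 genes outside the axes. SNRPE and LSM6 lie at the lower left, apart from the other 32 members, and NAA38 (open red circle), which is no member, lies nearest to them of the LSM-fold genes.

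The mimic effect shared by both lines was tested with limma, with the cell line as a block and Benjamini-Hochberg adjustment over 10678 genes. It called 0 members in either direction (0.00937% of genes were called lower and 0.0562% higher). SNRPE had a mean log2 change of -1.59 (SE 0.15, lower in 2 of 2 lines, adjusted p = 0.0655 in limma) and LSM6 of -1.58 (SE 0.16, lower in 2 of 2 lines, adjusted p = 0.0655 in limma). The call turned on the settings of the fit. Limma called both at adjusted p = 0.0468 with short non-coding genes left out and at 0.0370 and 0.0419 with a pseudocount of 5, while without a filter on low values their adjusted p in limma was 0.570 and 0.640. At an unadjusted p under 0.05, limma had 4 of 34 members lower, SNRPE, LSM6, LSM4 and LSM7 (11.8%, against 4.93% of genes). It had 3 higher, LSM3, PRPF4 and PRPF3 (8.82%, against 5% of genes). Without SNRPE and LSM6, 2 of 32 were lower (6.25%) and 3 higher (9.375%), and nothing is read from counts this small. The adjusted p in limma was 0.241 for LSM3 (mean 0.76, SE 0.16), 0.310 for PRPF4 (0.51, SE 0.13) and 0.329 for LSM4 (-0.48, SE 0.12). It was 0.430 for LSM7 (-0.42, SE 0.14) and 0.489 for PRPF3 (0.31, SE 0.12). With 1 residual degree of freedom the fit leans on the spread of all genes. That residual is the difference of the mimic change between the 2 lines, so a response that differs between the lines counts as noise. The p-values hold for the spread of these libraries only, since nothing says that they came from separate cultures. A miss of the threshold does not show that a gene was level.

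The genes that assemble snRNPs or work with them were given from related lists, of which 57 genes were measured in both lines. Of these 38 were lower with the mimic in MIA PaCa-2 cells (66.7%; 47.8% of all genes) and 29 in PSN-1 (50.9%; 52.4% of all genes), with medians of -0.068 and -0.0049. Limma called 0 of the 57. At an unadjusted p under 0.05 it had 3 lower, NAA38, EDC3 and SF3B4 (5.26%; 4.93% of all genes), a share near that of all genes, and 1 higher, EFTUD2, the GTPase of U5 (1.75%; 5% of all genes). The 18 measured genes of snRNP assembly had medians of -0.015 and -0.085. PRMT5, the methyltransferase that modifies Sm proteins, had -0.40 and -0.17. GEMIN7, an Sm-fold protein of the SMN complex, had 0.20 in MIA PaCa-2 (7.95 against 6.82 FPKM) and -0.74 in PSN-1. The PSN-1 change rests on low values, 1.66 against 3.44 FPKM, with no counting SE estimated. SMN1, the scaffold of that complex, had 0.11 and 0.076, though reads may be split between it and its near-identical copy SMN2. The 12 further U2 proteins had medians of -0.078 and 0.00051, with SF3B4 at -0.40 and -0.29. Among the 8 decay partners of the cytoplasmic LSM ring, EDC3, a decapping enhancer that itself has an LSM-fold domain, was at 11.4 against 16.2 FPKM and 12.1 against 19.9 FPKM (-0.47 and -0.67).

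NAA38, an LSM-fold protein that is an auxiliary subunit of an N-terminal acetyltransferase and belongs to no snRNP, was the 1 related gene past 1.5-fold downward in both lines. It was at 8.46 FPKM with the mimic and 21.5 FPKM with the scramble in MIA PaCa-2, and at 6.05 and 14.4 FPKM in PSN-1 (log2 changes -1.25 and -1.12, adjusted p = 0.111 in limma). Both mimic libraries lay below both scramble libraries. RefSeq gives NAA38 as an older name of LSM8 too; the files list LSM8 on a row of its own and no LSMD1, the older name of NAA38, so the row was read as NAA38. Of its basic protein-coding transcripts in GENCODE v29, 6 were searched and none held ACGGAT.

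Proliferation markers were lower in the same libraries, 10 of 10 in MIA PaCa-2 (median -0.55) and 9 of 10 in PSN-1 (median -0.24). Over all genes the share lower was 47.8% and 52.4%. PLK1, a mitotic kinase, had changes of -1.09 and -0.40. Their part in the values of the members was not tested.

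**Figure D4:**
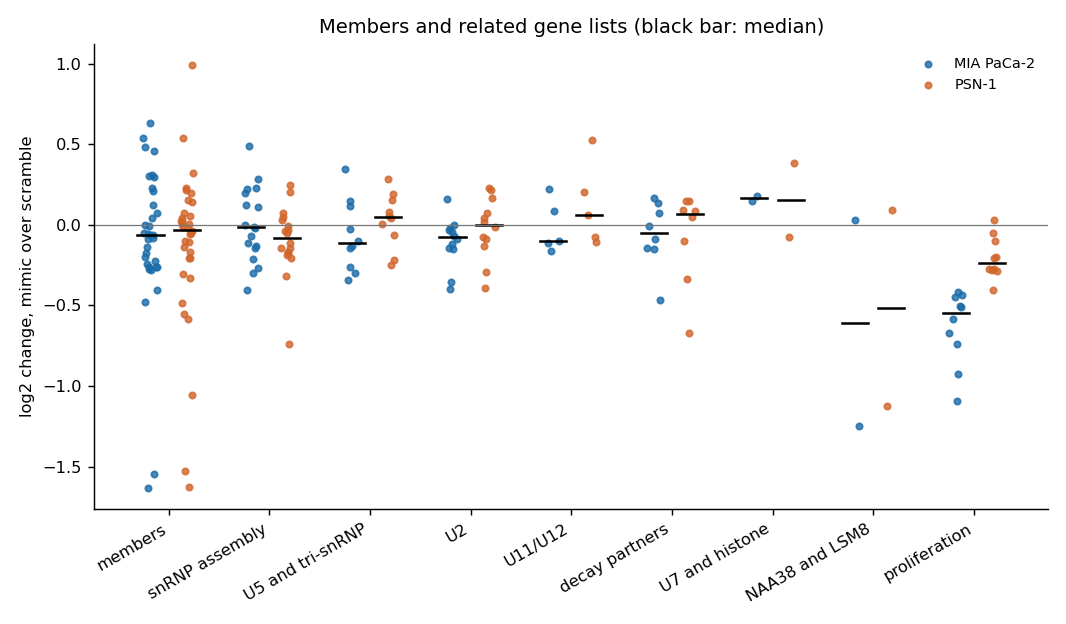
Log2 change of mimic over scramble for each measured gene of the members and the related lists, in MIA PaCa-2 (blue) and PSN-1 (orange), with the median as a black bar. Medians of the snRNP lists lie near 0, the proliferation list lies below 0 in both lines, and NAA38 is the point at -1.25 and -1.12.

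The lines themselves differed in the levels of many members. In the same limma fit, with mimic or scramble as the other term and 2 libraries per line, 7 of 34 members were higher in PSN-1 (20.6%; 24.2% of genes) and 9 were higher in MIA PaCa-2 (26.5%; 27.5% of genes), shares near those of all genes. The U2 proteins were both higher in PSN-1: SNRPB2 was at 84.0 and 80.7 FPKM there against 33.5 and 32.5 FPKM in the MIA PaCa-2 line (log2 difference 1.29, SE 0.11, adjusted p = 0.000698 in limma), and SNRPA1 had a difference of 0.90 (adjusted p = 0.002535 in limma). SNRPB (0.73), PRPF3 (0.72), LSM6 (0.64), SNRPF (0.58) and LSM14B (0.44) were also called higher in PSN-1.

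SNRPC was at 36.0 and 45.5 FPKM in PSN-1 against 76.4 and 87.7 FPKM in the MIA PaCa-2 line (difference -0.999, SE 0.12, adjusted p = 0.00150 in limma). LSM2 was at 15.7 and 14.9 against 31.5 and 32.8 FPKM (-1.02, adjusted p = 0.00229 in limma). SNRNP40 (-0.86), LSM10 (-0.86), PRPF8 (-0.79), LSM7 (-0.75), SNRPD1 (-0.60), LSM4 (-0.52) and SNRPD2 (-0.34) were the others called higher in MIA PaCa-2. SNRPE did not pass the threshold (difference 0.11, SE 0.15, adjusted p = 0.561 in limma). The same limit on the p-values holds here.

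**Figure D5:**
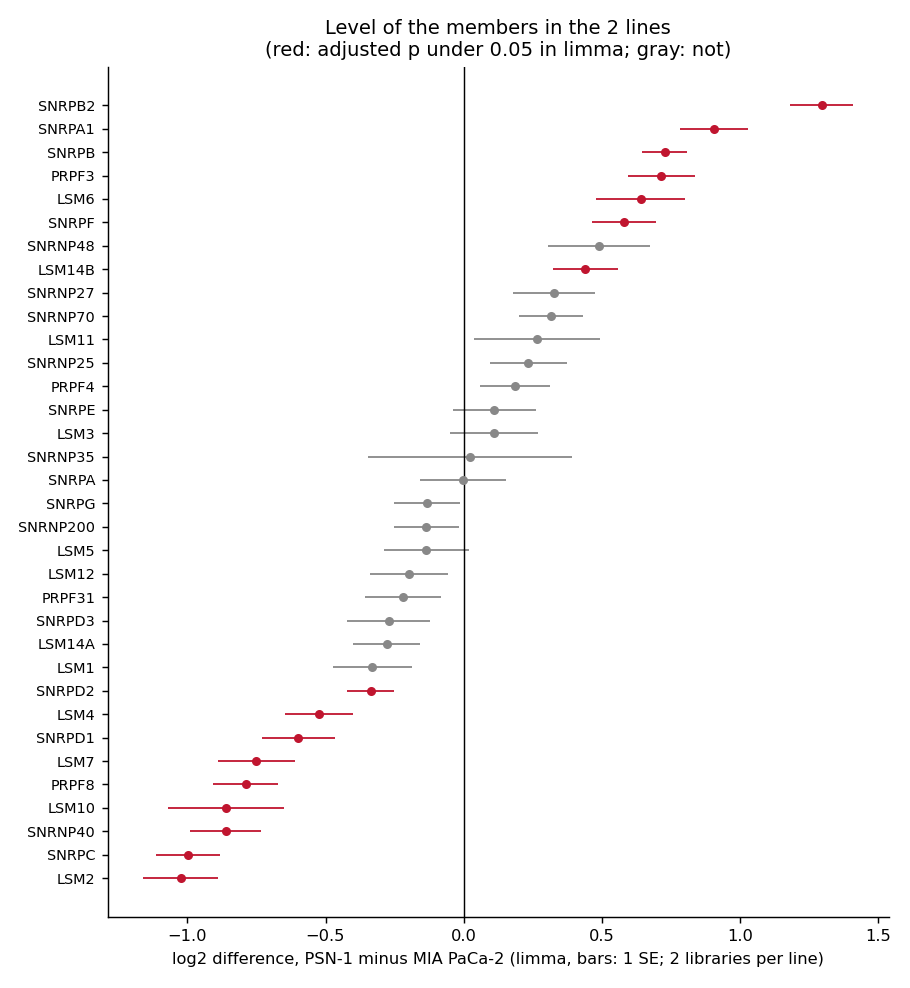
Log2 difference in level, PSN-1 minus MIA PaCa-2, for 34 members, with 1 SE from limma and 2 libraries per line; red points have an adjusted p under 0.05 and gray points do not. SNRPB2 at 1.29 and LSM2 at -1.02 are the ends of the range, and SNRPE lies at 0.11.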

How the data were processed

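Each deposited file lists gene symbols with FPKM from the authors. TopHat2 2.1.1, Cuffdiff 2.2.1 and the build hg19 appear in the submitters' processing notes, with no role for each. Per the labels' protocols, libraries came from a TruSeq stranded mRNA kit. The sources used here do not give the annotation or how libraries were scaled; median-ratio factors computed from the values were within 0.001 of 1.

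The members and lists were chosen with earlier results of these data known. Within a line there was no test. The shared effect and the line difference were fitted with limma 3.58.1 in R 4.3.3 (eBayes with trend, two-sided) on log2(FPKM + 1), keeping genes whose mean reached 1 FPKM in each line. The labels pair libraries by cell line. Members past 1.5-fold in both lines or 2-fold in either were given in full, and related genes past 1.5-fold in both. The full values of LSM3, LSM4, LSM7, PRPF3 and PRPF4 were added after they were seen. Depth was estimated from values under 0.3 FPKM with a fragment length of 200 bases. Sites and lengths came from GENCODE v29 (GRCh38), which matched 23679 of 26255 symbols and all 35 members. Trends on length and GC content were removed with lowess (statsmodels 0.14.6). The fit was tested on simulated data.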

Additional observations from a re-analysis of the deposited data

Results flagged for a closer look

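LSM10 and PRPF8 went in opposite directions in the 2 lines, each by more than 2 estimated counting SE, and the difference was not tested. Opposite directions were seen for 13 of 34 members and for 44.2% of all genes. The rule on counting SE was applied to the members alone, so no share of all genes stands beside it. PRPF8 was nearly level (-0.080 and 0.14) and passed the rule through its small counting SE (0.022 and 0.029), which leaves out any difference between cultures. The LSM10 change in PSN-1 minus that in MIA PaCa-2 was -0.79, and the PRPF8 difference was 0.22.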

How the results depend on the processing

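The counts past a threshold rest on few genes. With a pseudocount of 0.1, 2 members were higher past 1.5-fold in MIA PaCa-2, and with a pseudocount of 5, or with a mean of at least 5 FPKM (which removes LSM11), 0 were. With a pseudocount of 5, 2 members were lower past 1.5-fold in PSN-1. With the length trend or the 3' UTR GC trend removed it was 3, as LSM7 no longer passed (-0.49 and -0.51), and 11 and 12 members were lower in both lines in place of 14. With the trend on transcript length removed, the PSN-1 median of the members was -0.00079. The changes of SNRPE were then -1.54 and -1.56, and with a 3' UTR GC trend removed -1.57 and -1.67; LSM6 had -1.64 and -1.51, and -1.66 and -1.56. Across genes, PSN-1 changes had a Spearman correlation with 3' UTR GC content of -0.211.

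In limma, 2 members (SNRPE and LSM6) were called lower with a pseudocount of 5 and with short non-coding genes left out, and 1 (SNRPE) where the mean had to reach 5 FPKM. Over all genes limma called 1 lower and 6 higher. It called 6 lower and 10 higher with a pseudocount of 5, 2 lower at 5 FPKM, and 5 lower without short non-coding genes. Without the trend it called 0 lower, and without a filter 0 in either direction. With no replicate block, the cell line being left out, it called 0 lower and 0 higher. Without a filter 4188 genes were called higher in PSN-1. The SNRNP35 difference between the lines, which was not called, changed sign, from 0.022 to -0.021 with a pseudocount of 0.1 (adjusted p = 0.977 in limma). No other limma effect recomputed here did. Some small changes within a line also changed sign. With the length trend removed, 21 members were lower in MIA PaCa-2 in place of 22, and 17 in PSN-1 in place of 19. The adjusted p in limma ran from 0.0370 to 0.999942 for SNRPE and from 0.0419 to 0.999942 for LSM6, the upper ends with no replicate block. LSM6 (0.0511, no filter) and SNRPD2 (0.0911, no trend) were no longer called between the lines. Leaving out a library was not run, as it leaves a line without its pair; the values of each line stand in its place.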
